A study of Sus scrofa with 31 samples.

Results

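CD74 and the swine MHC class II genes were followed here across sorted microglia, alveolar macrophages and whole hippocampal tissue of the pig. The members were listed by name, with earlier results of these data known, as CD74, SLA-DRA, SLA-DRB1, SLA-DQA1, SLA-DQB1, SLA-DMA, SLA-DMB and CIITA, and were found in the count table by the gene names that the study pairs with Ensembl identifiers. Of these 8 genes, 7 had an identifier, among 31907 genes in the table. SLA-DRB1 had none and was not analysed here. All 7 passed the filter, which asked for over 10 CPM (gene counts scaled to a common library size) throughout at least 1 group. SLA-DQB1 passed through alveolar macrophages alone, and SLA-DQA1 through alveolar macrophages and cerebellar microglia.

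The data were total RNA sequences of 31 samples, whose titles hold the tags of 15 pigs, and 9 pigs gave more than 1 sample by these tags. The study's methods count more pigs than there are tags, and more pigs with several brain regions than the tags give. Samples with the same tag were taken here as 1 pig. All were male piglets of 24 to 26 days, each from its own litter of a Large White × Landrace sow and pooled Danish Duroc semen, and no treatment or genetic change was labelled in any group. CD11bhigh/CD45-ve/low cells sorted from cerebellum, hippocampus or frontal cortex are the microglia (8 samples per region). F4/80+ve/CD163low/-ve cells of lung lavage are the alveolar macrophages (3 samples), and 4 further samples are unsorted hippocampus, called hippocampal tissue. Hippocampal microglia and hippocampal tissue shared 4 pigs, and alveolar macrophages and hippocampal microglia shared 2 pigs. Litters were born in standard housing or in freer pens, and the housing of each piglet was not given in the sources used here. The samples held 18438494 to 43477403 counts on genes.

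MHC class II molecules carry peptides from endocytosed protein to the cell surface, where CD4+ T cells read them. Each is a pair of an alpha and a beta chain, encoded in swine by SLA-DRA, SLA-DQA1 and their beta partners. CD74, the invariant chain, holds the new pair together, blocks its groove and brings it to the endosome, where the SLA-DMA and SLA-DMB pair helps to exchange the last fragment of CD74 for a peptide. CIITA is the transactivator on which transcription of these genes depends, and resting microglia are known for low class II levels that rise on activation.

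In the RefSeq annotation of Sscrofa11.1, the build to which the reads were aligned, SLA-DRA (7:24825037-24830650), SLA-DQA1 (7:24953472-24959313), SLA-DQB1 (7:24969034-24977238), SLA-DMB (7:25119278-25125089) and SLA-DMA (7:25133494-25137928) lie together on chromosome 7. CD74 (2:151402210-151409924) and CIITA (3:32171706-32230775) lie elsewhere. Class II promoters are known for an X box and a Y box, which bind the regulatory factor X complex and nuclear factor Y that CIITA joins. The stretches below, from 150 to 41 bases before the start of the RefSeq mRNA, are shown because the 5 chromosome 7 members carry these letters there. Each is written 5′ to 3′ on the strand of its gene, with matches in capitals.

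SLA-DRA, plus strand, chr7:24824905-24825014: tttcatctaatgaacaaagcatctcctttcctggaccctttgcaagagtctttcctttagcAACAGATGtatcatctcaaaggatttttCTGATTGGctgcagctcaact
SLA-DQA1, plus strand, chr7:24953352-24953461: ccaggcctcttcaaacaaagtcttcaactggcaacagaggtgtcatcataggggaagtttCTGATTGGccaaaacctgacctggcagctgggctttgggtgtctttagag
SLA-DQB1, minus strand, chr7:24977279-24977388: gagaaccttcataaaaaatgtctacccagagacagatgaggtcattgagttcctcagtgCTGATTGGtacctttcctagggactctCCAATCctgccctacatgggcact
SLA-DMA, minus strand, chr7:25137959-25138068: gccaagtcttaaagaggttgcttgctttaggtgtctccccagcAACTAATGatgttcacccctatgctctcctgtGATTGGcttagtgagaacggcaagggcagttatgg
SLA-DMB, minus strand, chr7:25125130-25125239: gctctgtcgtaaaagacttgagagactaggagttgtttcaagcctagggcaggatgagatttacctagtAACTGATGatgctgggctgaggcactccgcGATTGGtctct

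The letters searched on both strands were CTGATTGG for the Y box, its core GATTGG, which lies inside the longer form and reads CCAATC on the other strand, and AACNNATG for a core of the X1 box. Both cores were chosen after these stretches had been read. In the 300 bases before the start of 19550 genes, CTGATTGG was present in 3.69%, GATTGG in 15.8% and AACNNATG in 7.17%. SLA-DRA, SLA-DQA1 and SLA-DQB1 held CTGATTGG, which in SLA-DRA lay 61 to 54 bases before the start. SLA-DMA and SLA-DMB held the core GATTGG, and these 2 genes and SLA-DRA held an AACNNATG match before it. A longer form of the X1 box was found in 2 of all promoters and in none of the members. For each gene 1 start was searched, that of its first curated RefSeq mRNA by accession. CD74 and CIITA held none of the 4 forms there, but RefSeq gives 3 starts for CD74 and 8 for CIITA, and the others were not searched. The reference is 1 Duroc animal, and SLA genes vary between pigs.

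Alveolar macrophages held the highest mean level of every member except SLA-DMB, and hippocampal tissue held the lowest of every member. CD74 led in each group. Per kilobase of RefSeq exon, the only scale used here to set genes beside each other, CD74 stood at 1021 CPM in alveolar macrophages, followed by SLA-DRA at 351 CPM, SLA-DQB1 at 281 CPM and SLA-DQA1 at 247 CPM. SLA-DMA stood at 54.9 CPM, SLA-DMB at 46.4 CPM and CIITA at 15.4 CPM. Exon length was taken over all RefSeq transcripts of a gene. It was 12128 bases for CIITA and 1063 to 1854 bases for the others, so the place of CIITA depends on that choice. In cerebellar microglia the order differed. There CD74 stood at 245 CPM per kilobase and SLA-DMB came next at 112 CPM, above SLA-DMA at 35.9 CPM, SLA-DRA at 35.2 CPM, SLA-DQA1 at 20.5 CPM and SLA-DQB1 at 16.7 CPM. The SLA class II genes are polymorphic and related in sequence, and how the counting divided reads between them was not tested.

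**Figure D1:**
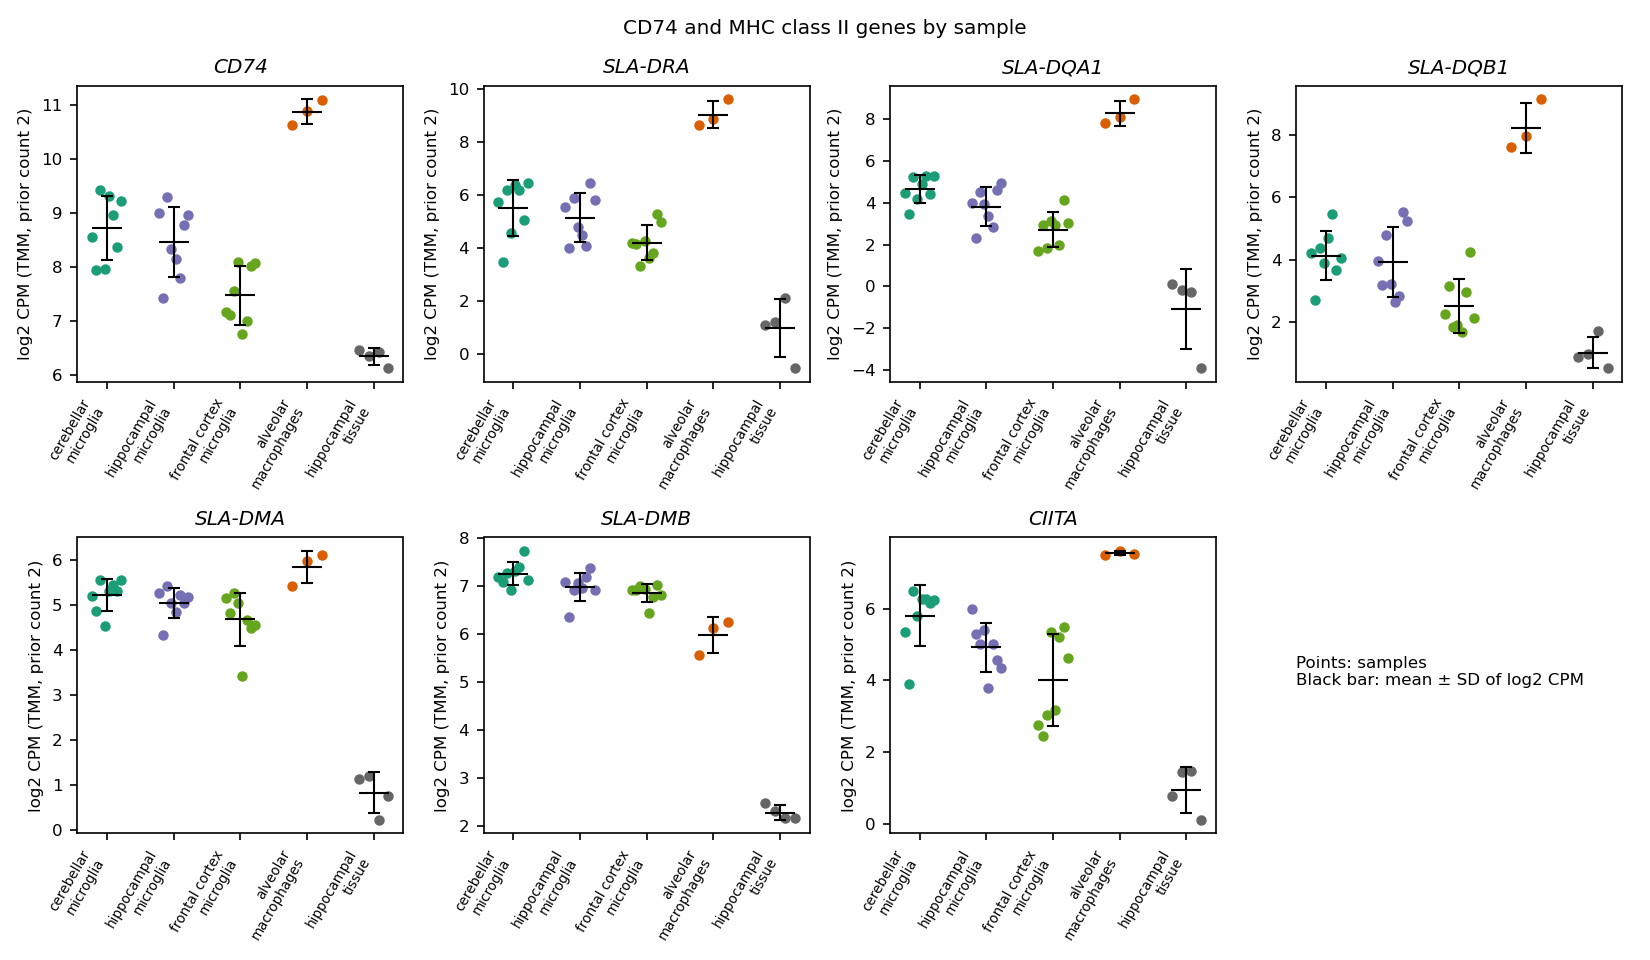
Log2 CPM (TMM factors, prior count 2) of each member in every sample of the 5 groups, with the mean and SD in black. Alveolar macrophages lie above all microglia for CD74, SLA-DRA, SLA-DQA1, SLA-DQB1 and CIITA, and below all microglia for SLA-DMB. Hippocampal tissue has the lowest mean of each member, and for SLA-DQB1 it overlaps with frontal cortex microglia. The lowest SLA-DQA1 point is a sample with 0 counts.

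The comparison of microglia with alveolar macrophages asks how brain macrophages differ from those of another organ. Microglia held far less mRNA of CD74, of the DR and DQ chains and of CIITA, and neither SLA-DMA nor SLA-DMB passed the rule. With edgeR's quasi-likelihood test, an adjusted p under 0.01 and a fold over 3, 5 of 7 members were lower in microglia and none was higher. Of all 11633 genes tested, 10.1% were lower by this rule and 12.2% were higher. SLA-DQB1, 1 of the 5, had passed the filter through alveolar macrophages alone, the group where it was high. The median log2 fold change of the members was -2.56, against 0.06 for all genes tested. The model had no term for the pig and took samples as independent, though 9 pigs gave more than 1. Over the alternatives run, the adjusted p of the 5 members reached at most 0.00157, for SLA-DQA1.

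CD74, the invariant chain, stood at 1595, 1896 and 2191 CPM in the 3 alveolar macrophage samples. In cerebellar microglia it ranged from 246 to 692 CPM (median 438), in hippocampal microglia from 172 to 628 CPM (median 382) and in frontal cortex microglia from 108 to 274 CPM (median 166). The groups did not overlap, with macrophages higher, as for 17.4% of all genes tested. CD74 was 5.88-fold lower in microglia (log2 fold change -2.56 ± 0.26 SE, edgeR adjusted p = 9.0e-10).

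SLA-DRA, the DR alpha chain, stood at 398.9, 469 and 783 CPM in alveolar macrophages. In microglia it ranged from 11.02 to 89.1 CPM in the cerebellum, from 16.0 to 88.9 CPM in the hippocampus and from 9.92 to 39.1 CPM in the frontal cortex, so that every microglia sample lay far below the lowest macrophage sample. SLA-DRA was 15.2-fold lower in microglia (log2 fold change -3.93 ± 0.38 SE, edgeR adjusted p = 5.3e-10).

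SLA-DQA1, the DQ alpha chain, stood at 222, 271 and 486 CPM in alveolar macrophages and at 3.2 to 39.1 CPM in microglia. SLA-DQB1, its beta partner, stood at 194, 248 and 563 CPM in alveolar macrophages and at 3.14 to 46.0 CPM in microglia. These were the largest differences among the members, 21.9-fold for SLA-DQA1 (log2 fold change -4.45 ± 0.38 SE) and 24.0-fold for SLA-DQB1 (log2 fold change -4.59 ± 0.40 SE). The edgeR adjusted p-values were 5.0e-11 and 6.7e-11. The SLA-DQB1 values are not independent of the filter, which that gene passed through alveolar macrophages alone. The macrophage sample of pig 12984 was the highest for CD74 and for the DR, DQ and DM chains, and that of pig 12821 was the lowest.

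CIITA varied little among the alveolar macrophages, at 181, 185 and 195 CPM, a coefficient of variation of 3.93%. In microglia it ranged from 5.38 to 90.9 CPM, below every macrophage sample. CIITA was 5.20-fold lower in microglia (log2 fold change -2.38 ± 0.41 SE, edgeR adjusted p = 1.4e-05).

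The DM pair had values of opposite sign. SLA-DMA stood at 43.1, 63.0 and 69.0 CPM in alveolar macrophages and at 10.7 to 46.8 CPM in microglia, with overlap. Its log2 fold change was -0.84 ± 0.23 SE (edgeR adjusted p = 0.0025), short of the fold of 3, and the adjusted p was 0.175 with the pig as a replicate block. SLA-DMB stood at 46.9, 69.1 and 76.3 CPM in alveolar macrophages, and every microglia sample was higher, at 81.7 to 212 CPM. Its log2 fold change was 1.04 ± 0.16 SE (edgeR adjusted p = 2.6e-06), also short of the fold of 3. Of all genes tested, 14.3% had all microglia samples above all macrophage samples, and 17.4% had the opposite.

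The ratio of SLA-DMB to SLA-DMA, per kilobase of exon, was 0.845 ± 0.006 (SD, n = 3) in alveolar macrophages. It was 3.21 ± 0.66 in cerebellar, 2.99 ± 0.51 in hippocampal and 3.63 ± 1.24 in frontal cortex microglia (SD, n = 8 each), and 2.20 ± 0.60 in hippocampal tissue (SD, n = 4). A ratio within a sample does not depend on how the libraries were scaled. The lowest microglia ratio, 2.19, was above the highest macrophage ratio, 0.851. In a two-sided exact permutation test of the log2 ratio, each region gave p = 0.0121 against alveolar macrophages, the smallest that 8 against 3 samples allow, and 0.0208 after adjustment over 12 tests of this kind. The ratios were chosen after the values had been seen. Their tests took samples as independent, though hippocampal microglia shared 2 pigs with alveolar macrophages. The same macrophage samples served for each region. In RefSeq, SLA-DMB and SLA-DMA lie within the span of BRD2 (7:25096579-25162591) on the opposite strand, and the strand setting of the counting was not given in the sources used here. BRD2 stood at 297 ± 24.5 CPM in alveolar macrophages (SD, n = 3) and at 292 to 318 CPM on average in the 3 microglia groups.

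CD74 also stood in another proportion to SLA-DRA. The ratio of CD74 to SLA-DRA per kilobase was 3.06 ± 0.60 in alveolar macrophages (SD, n = 3) and 8.50 ± 4.38, 8.78 ± 2.17 and 8.67 ± 3.57 in cerebellar, hippocampal and frontal cortex microglia (SD, n = 8 each). Each region differed from alveolar macrophages at p = 0.0121 in the exact permutation test (0.0208 adjusted), without overlap. The ratio of SLA-DQB1 to SLA-DQA1 was 1.09 ± 0.17 in alveolar macrophages (SD, n = 3) and 0.809 ± 0.249, 1.30 ± 0.55 and 1.12 ± 0.61 in the same regions (SD, n = 8 each). None of the 3 exact permutation tests against alveolar macrophages passed (p = 0.0848, 0.667 and 0.8).

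**Figure D2:**
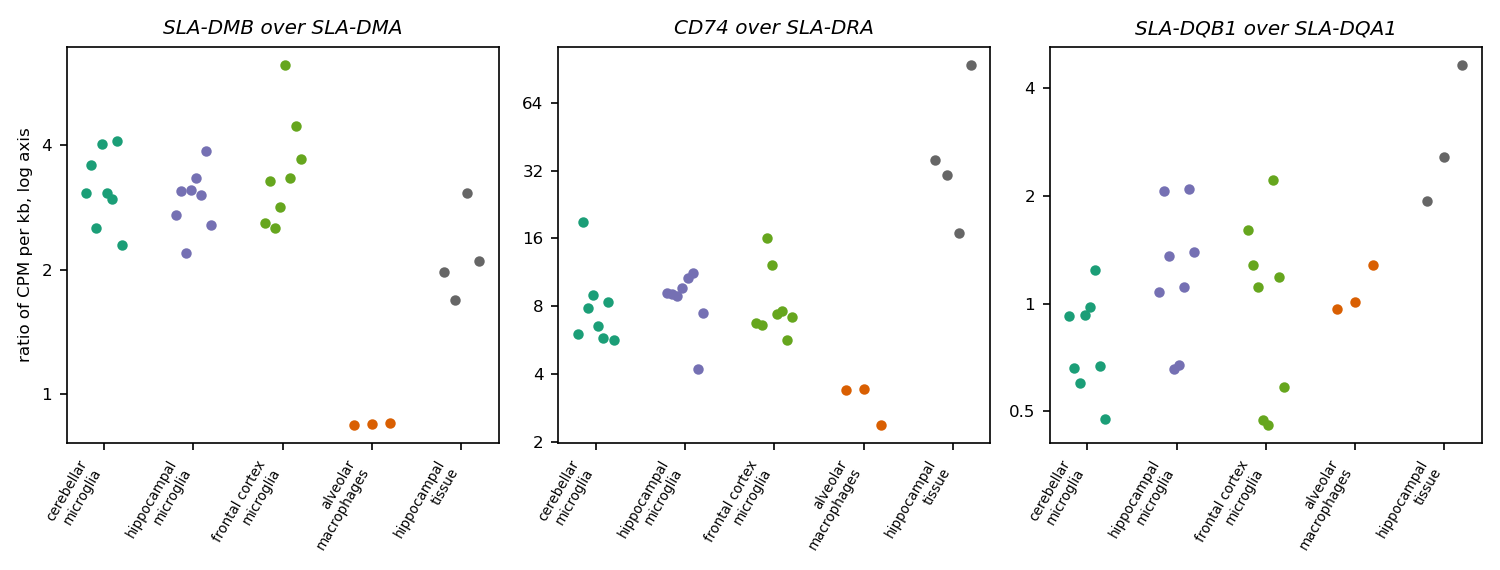
Ratios of CPM per kilobase of exon for 3 pairs of members in every sample, on log axes, where each point is a sample and the hippocampal tissue sample without SLA-DQA1 counts has no point in the right panel. The 3 alveolar macrophage samples lie between 0.839 and 0.851 for SLA-DMB over SLA-DMA, and all microglia lie above 2.

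Defining markers were checked beside these values. All 5 microglia markers were present in every microglia group, with a summed level of 1960 to 3610 CPM, against 14.4 to 26.3 CPM in the samples labelled alveolar macrophages. Of 4 alveolar macrophage markers, ADGRE1, which encodes the F4/80 antigen of the sort, stood at 63.3 to 142 CPM and PPARG at 14.8 to 56.9 CPM in those samples, while FABP4 and MARCO had no counts. CD163, on which the gate was set low, averaged 402 ± 149 CPM there (SD, n = 3). All 6 T cell markers and all 5 B cell markers were detected in alveolar macrophages, with summed levels of 666 to 1320 CPM and 390 to 576 CPM. Of the 3 alveolar macrophage samples, that of pig 12821 had the lowest levels of the members and the highest B cell sum, 576 CPM. Its monocyte and neutrophil sum, 332 CPM, was the lowest of the 3. The 4 monocyte and neutrophil markers summed to 332 to 532 CPM in alveolar macrophages and to 36.8 to 82.8 CPM in microglia. In alveolar macrophages CCR2 stood at 132 to 167 CPM and S100A9 at 80.1 to 136 CPM. Of the dendritic cell list, with 5 of 6 markers identified, the sum was 56.9 to 73.6 CPM in alveolar macrophages and 90.4 to 154 CPM in microglia. Most of the microglia sum came from ZBTB46 and BATF3, with regional means of 68.4 to 80.7 and 40.1 to 53.4 CPM. In alveolar macrophages these averaged 16.4 and 8.37 CPM. CCR7 went the other way, at 20.3 to 42.9 CPM in alveolar macrophages and at most 1.98 CPM in microglia. XCR1 was also higher in alveolar macrophages (mean 7.19 CPM), and FLT3 averaged at most 1.15 CPM in sorted cells. In microglia the sums were 15.8 to 73.8 CPM for T cells and 32.7 to 165 CPM for B cells, most of the latter from CD79A, and CD79B was at 0. B cells, dendritic cells and monocytes carry class II, and the part of these markers in the macrophage levels was not tested. In bulk RNA, fewer cells of a type and less RNA per cell cannot be told apart.

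The rest of the pathway was read from lists chosen with earlier results known. All 3 other class II genes were lower in microglia: HLA-DOB (log2 fold change -5.03 ± 0.93 SE) and SLA-DOA (-4.50 ± 0.89 SE), the chains that restrain DM, and LOC100153139, annotated as a DR beta chain-like gene (-3.99 ± 0.55 SE). LOC100153139 stood at 64.4, 251 and 701 CPM in alveolar macrophages, a wider spread than any member. For the listed genes beside the members, the groups that carried them past the filter were not worked out in full. Any that passed through alveolar macrophages alone share the limit given for SLA-DQB1.

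Of 9 endosomal processing enzymes, 6 were lower in microglia and none was higher by the rule. CTSL, cathepsin L, had no counts in cerebellar and hippocampal microglia and at most 0.203 CPM in the frontal cortex, against 11.3 to 77.0 CPM in alveolar macrophages. CTSH (log2 fold change -4.40 ± 0.24 SE) and CTSC (-4.13 ± 0.17 SE), also cathepsins, were lower too. CTSS, cathepsin S, which trims the invariant chain, stood at 181 ± 55.5 CPM in alveolar macrophages (SD, n = 3) and 164 ± 23.2 CPM in cerebellar microglia (SD, n = 8), with a log2 fold change of -0.25 ± 0.18 SE that did not pass (edgeR adjusted p = 0.25).

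Of 15 tested genes of class II transcription and interferon gamma signalling, 2 were higher and 1 was lower in microglia, near the 12.2% and 10.1% of all genes tested. IFNGR1, a chain of the interferon gamma receptor, was higher (log2 fold change 1.97 ± 0.20 SE), as was IRF8, a myeloid transcription factor (1.89 ± 0.18 SE), and SOCS1, an inhibitor of this signalling, was lower (-5.78 ± 0.54 SE). RFX5, RFXANK and NFYB, parts of the complexes at the X and Y boxes, had log2 fold changes of -0.57, -0.31 and -0.10, and none passed. They are named for this role, outside the rule for named genes. Of 10 tested class I genes, 1 was lower, also near that share, the immunoproteasome subunit PSMB9 (-1.99 ± 0.20 SE).

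Of 7 tested genes for costimulation and turnover, 2 were higher in microglia, CD80 (log2 fold change 1.86 ± 0.22 SE), a ligand of CD28, and MARCHF1 (1.98 ± 0.46 SE), a ligase that marks class II for degradation. CD74 is also the surface receptor of the cytokine MIF. Its co-receptors CD44 (-6.89 ± 0.36 SE) and CXCR4 (-6.03 ± 0.51 SE) were lower in microglia, as was CXCR2, at 11.8 to 18.3 CPM in alveolar macrophages and at most 0.336 CPM in microglia. CXCR2 had also passed the filter through alveolar macrophages alone, the group where it was high.

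**Figure D3:**
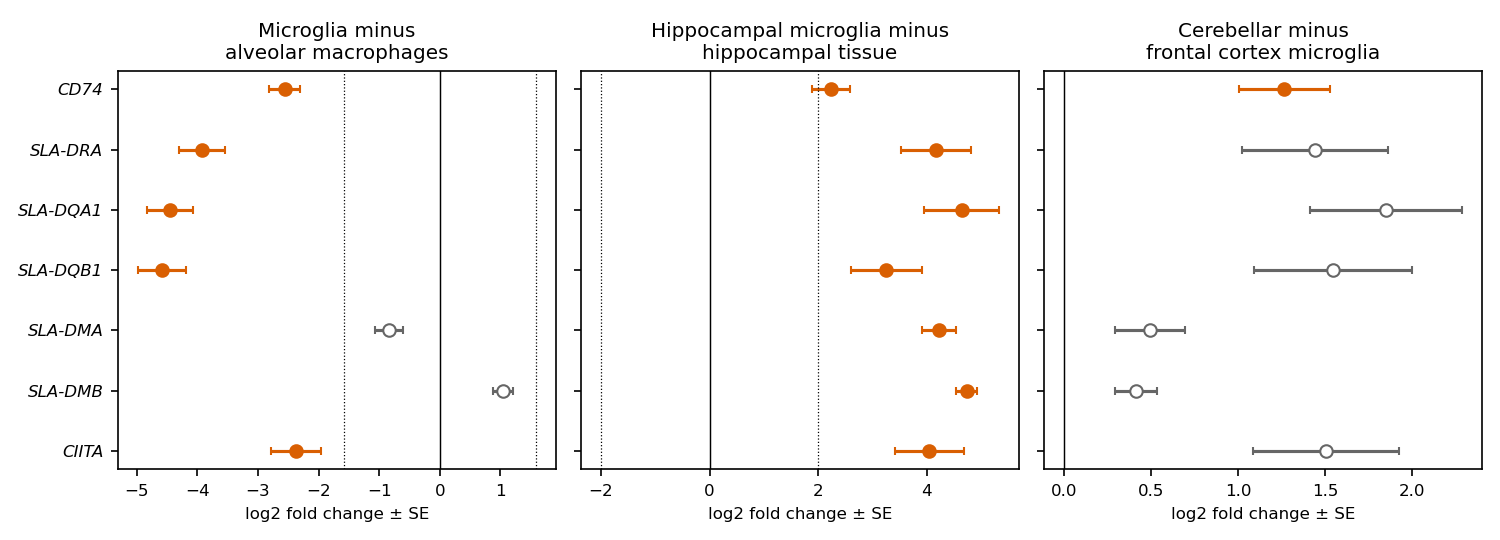
Log2 fold change with its SE for each member in 3 comparisons, where filled points passed the rule of that comparison and dotted lines mark the fold of 3 or 4. SLA-DMB is the only member on the right of 0 in the left panel, all 7 pass in the middle panel, and all 7 lie on the right of 0 with CD74 alone passing in the right panel.

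Hippocampal microglia were set beside the whole hippocampus to ask which mRNAs the sort had enriched. All 7 members were higher in microglia by an adjusted p under 0.01 and a fold over 4, and every microglia sample lay above every tissue sample. By the same rule, 11.7% of all genes tested were higher, and 31.1% did not overlap in this direction. The median log2 fold change of the members was 4.17, against -0.08 for all genes tested. This comparison and the one above share the hippocampal microglia.

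SLA-DMB had the largest fold in edgeR, while SLA-DQA1 had it in limma-voom (log2 fold change 5.42, against 4.71 for SLA-DMB). SLA-DMB went from 4.38 to 5.47 CPM in tissue to 81.7 to 164 CPM in microglia (log2 fold change 4.73 ± 0.19 SE, edgeR adjusted p = 1.8e-18). SLA-DQA1 followed, at 0, 0.77, 0.81 and 1.01 CPM in tissue (log2 fold change 4.64 ± 0.69 SE, edgeR adjusted p = 9.1e-07). The sample without SLA-DQA1 counts, pig 12872, also had the lowest SLA-DRA of the 4, at 0.63 CPM against 2.11, 2.26 and 4.29 CPM. SLA-DMA (log2 fold change 4.23 ± 0.31 SE), SLA-DRA (4.17 ± 0.64 SE), CIITA (4.05 ± 0.63 SE) and SLA-DQB1 (3.26 ± 0.65 SE) lay between.

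CD74 had the smallest fold. It stood at 70.02, 81.9, 86.3 and 88.6 CPM in tissue and was 4.69-fold higher in hippocampal microglia (log2 fold change 2.23 ± 0.35 SE, edgeR adjusted p = 2.4e-06). The ratio of CD74 to SLA-DRA per kilobase was 44.4 ± 34.2 in tissue (SD, n = 4) and 8.78 ± 2.17 in hippocampal microglia (SD, n = 8), without overlap (exact permutation p = 0.00404, 0.0208 adjusted over the 12 ratio tests). The ratio of SLA-DQB1 to SLA-DQA1 was 3.05 ± 1.41 in tissue (SD, n = 3) and 1.30 ± 0.55 in hippocampal microglia (SD, n = 8), with overlap (exact permutation p = 0.0364, 0.0485 adjusted). SLA-DMB over SLA-DMA gave the same p-values in this test, also with overlap. With 1 sample left out, the adjusted p of these 2 ratios rose to as much as 0.133 and 0.109. The ratio tests against tissue did not use the pairing of the pigs that gave both samples. With limma-voom, the tool named in the study's methods, 3 of 7 members passed, CD74, SLA-DMA and SLA-DMB, and the other 4 had adjusted p-values from 0.0131 to 0.0618. The same 3 passed with the pig as a random replicate block in limma-voom.

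Within the 4 pigs with both samples, all 7 members were higher in microglia in 4 of 4, as were 38.4% of all genes tested. Apart from SLA-DQA1, the mean within-pig log2 difference ranged from 2.08 ± 0.64 for CD74 to 4.83 ± 0.30 for SLA-DMB (SD, n = 4). For SLA-DQA1 it was 3.00, 3.26 and 4.87 in the 3 pigs with counts in tissue, and no difference is given for pig 12872, whose tissue sample had 0 counts. Markers of other brain cells summed to 10300 to 17000 CPM in tissue and to 22.6 to 221 CPM in hippocampal microglia. Alveolar macrophages were also higher than hippocampal tissue for all 7 members (28.9% of all genes tested were higher by an adjusted p under 0.01), from a log2 fold change of 3.73 ± 0.20 SE for SLA-DMB to 8.96 ± 0.86 SE for SLA-DQA1. SLA-DQB1 is among these 7 and had passed the filter through alveolar macrophages alone.

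In the other lists of the pathway, 2 of 3 further class II genes were higher in hippocampal microglia than in tissue by the same rule, LOC100153139 (log2 fold change 4.27 ± 0.94 SE) and SLA-DOA, at 0 to 5.19 CPM in microglia and at most 0.203 CPM in tissue. Of 9 processing enzymes 4 were higher and 2 were lower, where 11.7% of all genes tested were higher and 22.1% lower. The higher ones included IFI30, the thiol reductase that opens disulphide bonds of antigens (4.47 ± 0.28 SE), and CTSS (4.04 ± 0.24 SE) and CTSD (3.26 ± 0.27 SE), both cathepsins. CTSB was lower (-3.22 ± 0.36 SE), and CTSL had no counts in hippocampal microglia and 0.368 to 1.88 CPM in tissue.

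Of 15 transcription and interferon gamma genes 4 were higher, led by SPI1, which encodes the myeloid factor PU.1 (log2 fold change 4.08 ± 0.18 SE), IRF8 (3.65 ± 0.18 SE) and IFNGR1 (3.43 ± 0.20 SE). Of 10 class I genes 6 were higher, led by NLRC5, the class I transactivator (4.12 ± 0.82 SE), B2M, the light chain of class I (3.37 ± 0.37 SE), and PSMB8, an immunoproteasome subunit (3.27 ± 0.34 SE). Of 7 costimulation and turnover genes 5 were higher, led by ICOSLG (5.38 ± 0.28 SE), CD86 (4.86 ± 0.33 SE) and CD40 (4.79 ± 0.25 SE). Of the 4 genes around CD74 as a receptor of MIF, CXCR4 (-3.15 ± 0.70 SE) and CXCR2 were lower, the latter without counts in hippocampal microglia and at most 0.306 CPM in tissue.

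The study sampled 3 regions to ask whether microglia differ along the brain. Mean levels of all 7 members were highest in the cerebellum and lowest in the frontal cortex among the microglia. For SLA-DQB1 the cerebellar and hippocampal means were nearly equal, at 19.9 and 19.85 CPM. The share of all genes tested with this order of means was not worked out, so the order is a description only. An F test over the 3 regions called 1 member, CD74 (edgeR adjusted p = 0.0079), and 2.03% of all genes tested. With the pig as a replicate block in edgeR the adjusted p of CD74 was 0.0253 and no member was called (6 of 7 had an unadjusted p under 0.05 without the block), while with the pig as a random replicate block in limma-voom CD74 (adjusted p = 0.00106) and CIITA (adjusted p = 0.00433) were called. The call of CD74 in the F test was lost when any 1 of 15 of the 24 microglia samples was left out, with an adjusted p of up to 0.0253.

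Cerebellar against frontal cortex microglia gave the largest regional differences. CD74 averaged 454 ± 177 CPM in the cerebellum and 189 ± 69.5 CPM in the frontal cortex (SD, n = 8 each), and the groups overlapped. It was the 1 member of 7 called, 2.40-fold higher in the cerebellum (log2 fold change 1.26 ± 0.26 SE, edgeR adjusted p = 0.0041), where 0.894% of all genes tested were called higher. The call held with the pig as a replicate block (edgeR adjusted p = 0.0079). It was lost when any 1 of 7 samples was left out, namely frontal cortex pigs 12707, 12720, 12758 and 12847 and cerebellar pigs 12750, 12821 and 12902, with adjusted p from 0.0104 to 0.0142 and log2 fold changes from 1.14 to 1.23. It was also lost in a fit of these 2 regions alone (log2 fold change 1.26, edgeR adjusted p = 0.0157), where SLA-DQA1 passed in its place (1.85, adjusted p = 0.0071).

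SLA-DQA1 averaged 27.0 ± 10.8 CPM in the cerebellum and 7.51 ± 4.61 CPM in the frontal cortex (SD, n = 8 each), a log2 fold change of 1.85 ± 0.44 SE that missed the threshold (edgeR adjusted p = 0.011). Without the frontal cortex sample of pig 12891, SLA-DQA1 (log2 fold change 2.15, adjusted p = 0.0039) and SLA-DQB1 (1.95, adjusted p = 0.0089) passed beside CD74. Without the cerebellar sample of pig 12599, SLA-DQA1 passed (1.97, adjusted p = 0.0086). SLA-DQB1 (log2 fold change 1.54 ± 0.45 SE), CIITA (1.504 ± 0.42 SE) and SLA-DRA (1.44 ± 0.42 SE) had adjusted p-values of 0.044, 0.034 and 0.042. SLA-DMA (0.49 ± 0.20 SE) and SLA-DMB (0.41 ± 0.12 SE) differed least. With limma-voom 3 members were called, CD74, CIITA and SLA-DQA1, both without and with the pig as a random replicate block.

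In 6 pigs, microglia of both regions were sequenced. CD74, SLA-DQA1, SLA-DMB and CIITA were higher in the cerebellum in 6 of 6 pigs, as were 5.28% of all genes tested. From frontal cortex to cerebellum, CD74 went from 144 to 246 CPM in pig 12599, from 274 to 692 in 12750, from 108 to 251 in 12758, from 128 to 502 in 12847, from 261 to 332 in 12891 and from 271 to 598 in 12902. The mean within-pig log2 difference was 1.13 ± 0.55 for CD74, 1.81 ± 1.03 for SLA-DQA1, 1.37 ± 0.68 for CIITA and 0.439 ± 0.202 for SLA-DMB (SD, n = 6), each with p = 0.0312 in a two-sided exact permutation test of signs, the smallest that 6 pigs allow, before adjustment over the 7 members. SLA-DQB1 and SLA-DMA were higher in 5 of 6 pigs (p = 0.0938 and 0.0625 in the exact test) and SLA-DRA in 4 of 6 (p = 0.156 in the exact test). The exceptions were pig 12891 for SLA-DRA and SLA-DQB1 and pig 12599 for SLA-DRA and SLA-DMA.

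**Figure D4:**
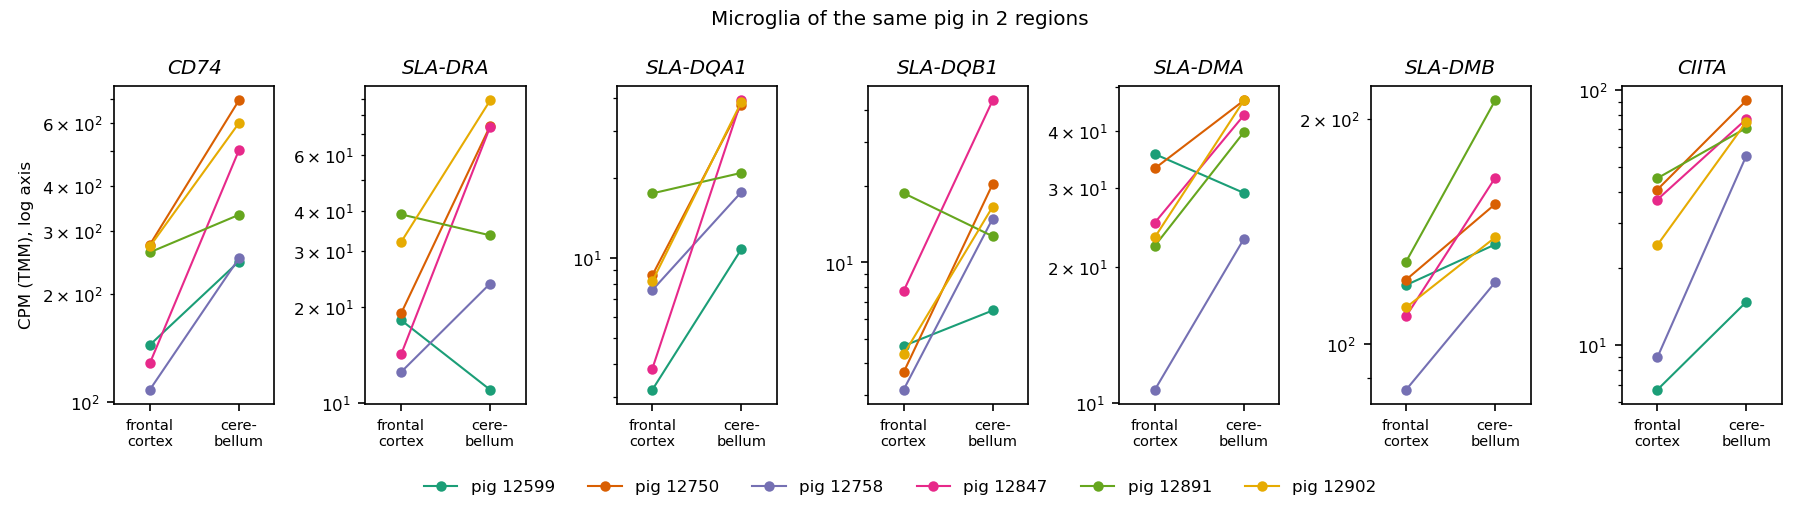
CPM of each member in frontal cortex and cerebellar microglia of the 6 pigs with both, on log axes, where each line is a pig. All 6 lines rise for CD74, SLA-DQA1, SLA-DMB and CIITA, and some fall for SLA-DRA, SLA-DQB1 and SLA-DMA.

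The frontal cortex sample of pig 12891 held the highest sum of border macrophage markers among the 24 microglia samples, 53.3 CPM, where the frontal cortex samples ranged from 16.7 to 53.3 CPM and the cerebellar samples from 5.71 to 38.9 CPM. That of pig 12750 came close, at 52.6 CPM, with SLA-DQA1 at 8.62 CPM and SLA-DQB1 at 3.68 CPM. In pig 12891 the B cell sum of 120 CPM was the highest in the frontal cortex, while a cerebellar sample, of pig 12758, reached 165 CPM. Markers of other brain cells summed to 30.3 to 676 CPM in frontal cortex and 22.1 to 278 CPM in cerebellar microglia. Their part in the regional values was not tested.

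The other pairs of regions gave no calls. No member was called between cerebellar and hippocampal microglia by edgeR, where 0.438% of all genes tested were called higher, and 2 of 7 had an unadjusted p under 0.05. SLA-DQB1 averaged 19.9 ± 11.2 and 19.9 ± 15.5 CPM (SD, n = 8 each). Within the 4 pigs with both regions, CD74, SLA-DQA1, SLA-DMA, SLA-DMB and CIITA were higher in the cerebellum in 4 of 4, as were 12% of all genes tested, and SLA-DRA and SLA-DQB1 in 3 of 4. The mean within-pig log2 difference was 1.33 ± 0.50 for SLA-DQA1, 1.30 ± 0.97 for CIITA and 0.772 ± 0.908 for SLA-DQB1 (SD, n = 4), where an exact test of signs cannot reach 0.05 and none was run. Between hippocampal and frontal cortex microglia no member was called by edgeR, against 0.129% of all genes tested called higher, and 4 of 7 had an unadjusted p under 0.05. CD74 had a log2 fold change of 1.02 ± 0.26 SE and an adjusted p of 0.0336 in edgeR, and an adjusted p of 0.00397 in DESeq2. Within the 3 pigs with both, CD74, SLA-DRA, SLA-DQB1 and SLA-DMA were higher in the hippocampus in 3 of 3, as were 12.6% of all genes tested. The mean within-pig log2 difference was 1.12 ± 0.59 for CD74, 1.43 ± 1.15 for SLA-DRA and 2.04 ± 0.53 for SLA-DQB1 (SD, n = 3).

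Of the other lists, 1 processing enzyme was called higher in the cerebellum than in the frontal cortex, CTSB, cathepsin B (log2 fold change 2.06 ± 0.31 SE, edgeR adjusted p = 1.4e-04). It stood at 20.3 to 89.9 CPM in cerebellar and 4.85 to 17.9 CPM in frontal cortex microglia. None of the class II transcription, class I, costimulation or MIF receptor genes was called between these regions by edgeR. Nor was any of the 3 other class II genes, whose median log2 fold change was 1.84. The median log2 fold change was -0.03 for the 15 transcription and interferon gamma genes and 1.44 for the 7 members, against -0.03 for all genes tested.

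In the order of groups, alveolar macrophages and cerebellar microglia differed at an adjusted p under 0.01 for CD74, the DR and DQ chains, all higher in macrophages as were 21.3% of all genes tested, and SLA-DMB, but not for CIITA (adjusted p = 0.012) or SLA-DMA (adjusted p = 0.051) by edgeR. The limit that the filter sets on SLA-DQB1 holds here too. Cerebellar and hippocampal microglia, and hippocampal and frontal cortex microglia, did not differ by this rule for any member. Frontal cortex microglia were above hippocampal tissue for each member (30.9% of all genes tested) except SLA-DQB1, at 3.14 to 18.8 CPM against 1.38 to 3.22 CPM (edgeR adjusted p = 0.013). For SLA-DMB the last microglia group was followed by alveolar macrophages, which were lower (log2 fold change -0.86 ± 0.17 SE, edgeR adjusted p = 1.1e-04), as were 22.9% of all genes tested.

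Levels varied between pigs to a different degree for each member. In hippocampal microglia the coefficient of variation was 78.0% for SLA-DQB1, 61.3% for SLA-DRA, 54.5% for SLA-DQA1 and 46.4% for CIITA, but 20.4% for SLA-DMA and 18.7% for SLA-DMB. The median over 8528 genes above 10 CPM in that group was 17.9%. In frontal cortex microglia SLA-DMB varied by 11.7%, less than most genes, and CIITA by 76.3%.

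Members also varied together between pigs of 1 region. Over 63 pairs of members within a region (21 pairs in each of 3 regions, 8 pigs each), Pearson's r of log2 CPM was positive in 56, with a median of 0.534. Over all pairs of tested genes in the same samples, 49.8 to 50.3% of r values were positive in each region, and the median r was within 0.00357 of 0. Of the 63 pairs of members, 9 passed an exact permutation test at an adjusted p under 0.05. The 9 were 5 pairs in the cerebellum, 4 in the hippocampus and 0 in the frontal cortex, where r ranged from -0.417 to 0.853. The lowest r among the 9 was 0.86. Among all pairs of tested genes, 1.06% reached that r in cerebellum, 0.49% in hippocampus and 1.75% in frontal cortex. CD74 and SLA-DRA had r = 0.917 in cerebellar microglia (adjusted p = 0.0198 in the exact test, Spearman's rho = 0.905) and 0.896 in hippocampal microglia (adjusted p = 0.0377 in the exact test, rho = 0.833). SLA-DRA and SLA-DQA1 had r = 0.955 in the cerebellum and 0.921 in the hippocampus (adjusted p = 0.0198 for both in the exact test, rho = 0.833 and 0.929). Without the 2 pigs farthest from the median of the first gene, these 4 r values were 0.893, 0.772, 0.837 and 0.934.

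The other 5 pairs were CD74 with SLA-DQA1 in both regions (r = 0.899 and 0.921) and, in 1 region each, CD74 with SLA-DMA (0.86), SLA-DQA1 with CIITA (0.867) and SLA-DRA with SLA-DQB1 (0.93). No pair with SLA-DMB passed. CIITA in hippocampal microglia had r from -0.167 to 0.112 with the other 6 members. With Spearman's coefficient no pair passed after adjustment, while 19 had an unadjusted exact p under 0.05, against 20 with Pearson's. Leaving out pig 12758 or pig 12821 left 0 pairs, leaving out pig 12750 left 3 and leaving out pig 12599 left 5. Both genes of a pair were measured in the same library, and the pigs of the 3 regions overlap.

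**Figure D5:**
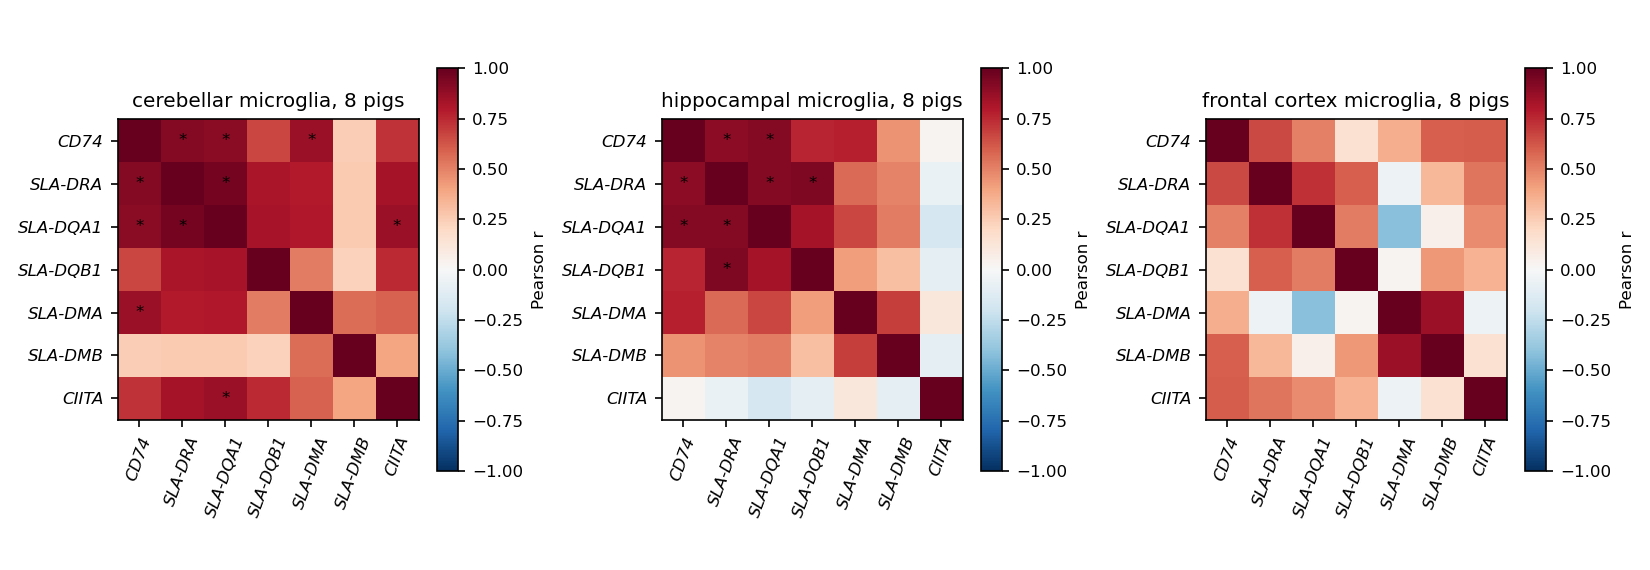
Pearson's r of log2 CPM between members over the 8 pigs of each microglia region, from -1 in blue to 1 in red, with asterisks on pairs whose exact permutation test passed an adjusted p under 0.05. CD74, SLA-DRA and SLA-DQA1 form a dark block in the cerebellum and the hippocampus, and no pair is marked in the frontal cortex.

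Over all 24 microglia samples, the genes with a symbol whose log2 CPM followed CD74 most closely, members aside, were SH3KBP1 (r = 0.732), ARHGAP20 (0.727), CCL8 (0.716), IER2 (0.711) and AMPD3 (0.706). SLA-DRA and SLA-DQA1 stood nearer to CD74, at 0.886 and 0.874. For SLA-DRA they were HERC1 (0.716), AGO3 (0.692), ARID3B (0.685), TRIM32 (0.674) and LOC100153139 (0.673). These values are a description over samples that share pigs and differ by region.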

How the data were processed

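Total RNA was measured in 31 samples. The deposited values are raw counts per gene, which the authors made from paired reads of 50 bases. BBtools 38.67 served for trimming, HISAT2 for alignment (Sscrofa11.1, Ensembl release 99) and StringTie for counting. Libraries were made with a stranded kit. The samples held 18438494 to 43477403 counts, at which 3 counts are 0.069 to 0.163 CPM, which covers counting error only.

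The 11633 genes above 10 CPM throughout a group were kept. TMM factors (0.826 to 1.16) and edgeR 4.0.16 in R 4.3.3 (robust quasi-likelihood, 1 model for the 5 groups, adjusted p under 0.01 over all tested genes by Benjamini-Hochberg) gave the tests, with folds of 3 against alveolar macrophages and 4 against tissue. Standard errors came from the quasi-likelihood F statistic. Log2 CPM used a prior count of 2. Exact permutation tests were two-sided (scipy 1.17.1, numpy 2.4.6, Python 3.11.15). The fit was tested on simulated data.

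Samples with the same tag were taken to come from the same pig, and every within-pig value rests on this. Deviations from group means correlated with a median r of 0.0417 over 25 same-pig pairs of samples, against 0.000169 over 347 pairs of different pigs. Replicates differed by more than counting noise (chi-square per degree of freedom 29.7 or more).

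Members and lists were chosen with earlier results of these data known. Named genes were all members and, from each list, up to 3 called genes per direction. Symbols came from the study's supplementary tables, which hold mostly genes that changed, and the reference. Alternatives were RLE factors, no factors, filterByExpr, no filter, limma-voom (limma 3.58.1), DESeq2 1.42.0, an adjusted p under 0.05, only the groups compared, the pig as a block and each sample left out. The ratios, the within-pig test, the motif cores and the correlations over all gene pairs were added after the data were seen. Promoter and exon sequence came from RefSeq annotation release 106.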

Additional observations from a re-analysis of the deposited data

Results flagged for a closer look

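In 28 groups of values, 7 members in 4 groups of 4 to 8 samples, 2 values stood far from the rest of their group, where chance flags about 1 in 20. Both belonged to the frontal cortex microglia of pig 12891. SLA-DQA1 was 17.5 CPM there, against 3.2 to 8.62 CPM in the other 7 samples, and SLA-DQB1 was 18.8 CPM, against 3.14 to 8.85 CPM. SLA-DRA (39.1 CPM), SLA-DMB (129 CPM) and CIITA (45.1 CPM) were also highest in this sample among frontal cortex microglia. CD74 (261 CPM) and SLA-DMA (22.3 CPM) were not.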

How the results depend on the processing

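Against alveolar macrophages 5 members were called under every alternative, and between alveolar macrophages and tissue all 7 were. Hippocampal microglia against tissue gave 3 with limma-voom and 3 with the pig as a random replicate block in limma-voom, 7 otherwise. The F test over 3 regions (1 member) gave 4 at an adjusted p under 0.05, 3 with DESeq2, 2 with the random replicate block, 0 with the pig as a replicate block in edgeR, 0 without factors, 0 without a filter, 0 with only the groups compared, and 0 to 2 with 1 sample left out. Cerebellum against frontal cortex (1 member) gave 6 at an adjusted p under 0.05, 4 with DESeq2, 3 with limma-voom, 3 with the random replicate block, and 0 to 3 with 1 sample left out, while a fit of these regions alone gave 1 but called SLA-DQA1 (adjusted p = 0.0071) in place of CD74 (0.0157). Hippocampus against frontal cortex (0) gave 1 at an adjusted p under 0.05 and 1 with DESeq2. Cerebellum against hippocampus gave 0 throughout. Of the 63 pairs, 0 were called with Spearman's coefficient and 0 to 11 with 1 pig left out. The pig as a block changed no other count of members called.

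SLA-DQB1, near 0 between cerebellum and hippocampus, changed sign with filterByExpr (-0.000904), without a filter (-0.00367) and without single samples (range -0.26 to 0.307, below 0 at -0.0472, -0.0551, -0.0991, -0.12, -0.127 and -0.26). SLA-DMB between hippocampus and frontal cortex did so without frontal cortex pig 12758 (-0.00706, range to 0.164). The cause of these changes was not tested. The ratio of SLA-DMB to SLA-DMA differed from alveolar macrophages by 1.75 to 2.1 on the log2 scale with any 1 sample left out. Exact tests of 8 microglia samples of a region against 3 alveolar macrophage samples cannot go below p = 0.0121.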
